A study of Mus musculus with 6 samples.

Results

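The Kruppel-like factors (KLFs) are transcription factors whose carboxyl end carries a run of C2H2 zinc fingers that binds CACCC and GC-rich boxes in DNA. The 10 genes described here are Klf2, Klf3, Klf4, Klf6, Klf7, Klf9, Klf10, Klf11, Klf13 and Klf16, which were taken by gene name from the 54532 genes of the count table. The table lists 7 further KLF genes, and these are described beside the members only for the level of the family. All 10 names were found, each in a single row of the table, and all are annotated there as protein-coding genes of the zf-C2H2 class.

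RNA-seq was performed on leukemia cells of C57BL/6 mice that carried AML1-ETO9a (AE9a), a truncated form of the AML1-ETO fusion of human acute myeloid leukemia. The cells came from 2 regions of the marrow, with 3 libraries of central bone marrow (CBM), which was flushed from the bones, and 3 of endosteal bone marrow (EBM), which was released from the flushed bones by collagenase. Every library, CBM included, came from AE9a leukemia with no further treatment, and the labels give no age. The study's methods describe a retrovirus that brought AE9a into c-Kit+ progenitors, and mice of the third round of transplantation of the resulting leukemia, so that all libraries descend from 1 established model. The sources do not say whether a library came from 1 mouse or several, so p-values measure the spread between these libraries. Only the EBM cells went through the digestion, and region and digestion therefore cannot be told apart.

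Counts on genes totalled between 16436526 and 19462964 per library, and a gene with 3 counts had between 0.149 and 0.193 CPM, the TMM-normalised counts per 1e6 counts of a library. The c-Kit gene Kit, a marker of these leukemia cells, was present in every library at 196 to 239 CPM. Of the other leukemic and immature myeloid markers, Runx1 was at 330 to 722 CPM, Spi1 at 68.4 to 106 CPM and Runx1t1 at 20.5 to 41.0 CPM, while Cd34 lay between 1.16 and 16.4 CPM, Elane between 0.512 and 14.7 CPM and Mpo between 1.65 and 35.8 CPM. The lowest levels were those of Ptprc, which encodes the pan-leukocyte antigen CD45, between 0.0992 and 3.58 CPM, and of Cebpa, at no more than 0.684 CPM. All 7 erythroid markers were counted well, their summed level ranging from 2131 to 5643 CPM in CBM and from 2549 to 3927 CPM in EBM, with Hba-a1 the most abundant. Monocyte and macrophage markers, led by Ccr2, summed to 10.4 to 31.3 CPM over all libraries, and megakaryocyte markers, led by Itga2b, to 7.07 to 28.5 CPM. Markers of mature neutrophils summed to between 3.37 and 228 CPM in CBM and between 35.1 and 163 CPM in EBM, S100a9 being the most abundant. Endothelial, osteoblast and stromal, B cell and T cell markers were low, with most of their counts on Plvap, Runx2 and Cd79b in the first 3 lists and a T cell sum of at most 0.842 CPM, and with Cldn5, Emcn, Alpl, Sp7 and Ms4a1 listed at 0 in every library. The first principal component of log2 CPM held 53.0% of the variance and did not follow region, since CBM replicate 1, EBM replicate 1 and EBM replicate 2 lay at 38.5, 36.4 and 19.8 while CBM replicate 2 and EBM replicate 3 lay at -42.9 and -46.0, and CBM replicate 3 at -5.81. The second component, with 19.7%, separated the regions, with CBM at 22.8, 3.58 and 31.5 and EBM at -22.2, -20.9 and -14.8 for replicates 1 to 3.

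In blood cells, members of the family divide into groups by their amino ends. Klf9, Klf10, Klf11, Klf13 and Klf16 bind the corepressor SIN3A, and Klf10 and Klf11 were named as early genes of TGF-beta signalling. Klf3 recruits the corepressor CtBP and damps targets of Klf1, the erythroid factor of the family. Klf2, Klf4, Klf6 and Klf7 act mainly as activators, Klf2 being known for the quiescence and traffic of lymphocytes and Klf4 for monocyte development. Several members are rapidly inducible genes, like the immediate early genes Fos and Egr1.

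The promoters of 6 members are shown because the results below turn on these genes, which stand for the SIN3A group (Klf11, Klf9 and Klf13), the most abundant member (Klf6), the most variable (Klf2) and the CtBP-binding member (Klf3). RefSeq promoters of GRCm38.p6 matched 8 of the 10 members, and Klf10 and Klf16 had no entry. Each runs 5′ to 3′ from 250 bases before the RefSeq start to 50 bases after it, and that start lay between 0 and 133 bases from the gene start of the count table. They are, in order, chr12:24651121-24651420 (plus strand), chr19:23140976-23141275 (plus), chr13:5861239-5861538 (plus), chr8:72318812-72319111 (plus), chr5:64803271-64803570 (plus) and chr7:63938866-63939165 (minus). Capitals mark the CACCC box that KLF proteins recognise (CACCC, or GGGTG on the other strand), the E-box CACGTG and the MEF2 site, each searched on both strands.
Klf11: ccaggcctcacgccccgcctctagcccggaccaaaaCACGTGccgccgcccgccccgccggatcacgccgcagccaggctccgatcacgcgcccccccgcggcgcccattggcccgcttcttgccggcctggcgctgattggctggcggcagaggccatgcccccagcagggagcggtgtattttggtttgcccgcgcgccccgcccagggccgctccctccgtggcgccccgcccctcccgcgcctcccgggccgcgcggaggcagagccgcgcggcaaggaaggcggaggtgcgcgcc
Klf9: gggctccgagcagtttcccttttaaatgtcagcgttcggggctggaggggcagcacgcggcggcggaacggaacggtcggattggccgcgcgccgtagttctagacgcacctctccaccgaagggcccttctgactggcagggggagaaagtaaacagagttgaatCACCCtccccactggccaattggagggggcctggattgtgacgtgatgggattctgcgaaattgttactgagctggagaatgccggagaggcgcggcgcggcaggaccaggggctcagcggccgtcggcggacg
Klf6: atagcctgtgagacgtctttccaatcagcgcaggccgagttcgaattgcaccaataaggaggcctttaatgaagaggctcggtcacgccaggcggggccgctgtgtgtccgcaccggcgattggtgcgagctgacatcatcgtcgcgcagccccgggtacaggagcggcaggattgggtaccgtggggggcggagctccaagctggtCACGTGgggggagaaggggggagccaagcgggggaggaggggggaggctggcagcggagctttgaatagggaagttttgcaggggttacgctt
Klf2: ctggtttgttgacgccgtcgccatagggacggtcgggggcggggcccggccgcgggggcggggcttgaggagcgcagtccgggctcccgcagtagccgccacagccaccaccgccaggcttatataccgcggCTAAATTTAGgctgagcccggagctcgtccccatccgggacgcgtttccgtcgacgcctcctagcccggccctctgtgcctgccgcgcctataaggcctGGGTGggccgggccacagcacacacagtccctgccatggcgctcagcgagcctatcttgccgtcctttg
Klf3: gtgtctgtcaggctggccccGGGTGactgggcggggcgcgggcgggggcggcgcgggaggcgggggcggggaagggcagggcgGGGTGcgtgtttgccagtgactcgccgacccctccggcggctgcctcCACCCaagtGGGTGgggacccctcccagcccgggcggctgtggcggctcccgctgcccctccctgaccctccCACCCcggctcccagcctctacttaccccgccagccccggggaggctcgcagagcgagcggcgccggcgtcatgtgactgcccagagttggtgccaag
Klf13: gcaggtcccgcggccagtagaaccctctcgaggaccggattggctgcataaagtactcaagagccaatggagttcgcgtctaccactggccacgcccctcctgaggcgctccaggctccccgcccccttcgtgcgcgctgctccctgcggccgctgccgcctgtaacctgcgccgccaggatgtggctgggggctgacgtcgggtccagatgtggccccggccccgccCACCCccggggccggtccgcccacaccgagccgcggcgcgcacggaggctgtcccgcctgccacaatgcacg

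Klf3 had 5 CACCC boxes in this window, the most of the 8 members, and Klf7 had 3, where 9.40% of the 32544 promoters of the RefSeq table held 3 or more. Klf2, Klf9 and Klf13 had 1 each, and Klf4, Klf6 and Klf11 had none, so that 5 of 8 members held a box against 57.7% of all promoters. One box of Klf3 and one of Klf13 shared bases with a GC box (GGGCGG), and that of Klf9 shared bases with an AP-1 site (TGANTCA), a match found in 7.79% of promoters. The E-box, the site of Myc and of the circadian clock factors, was found in Klf4, Klf6 and Klf11, at -43 in Klf6 and -214 in Klf11, and in 7.17% of all promoters. Klf2 alone among the 8 had a MEF2 site, at -118, a motif that 3.16% of all promoters held. GC boxes were found in 7 of 8 members, all but Klf9, and in 35.9% of all promoters. The promoters of the 8 members held 58.3% to 77.7% G and C, against a median of 53% over all promoters. The part of this base content in the matches to the CACCC and GC boxes was not tested. The short form TGACG of the cAMP response element was found in 5 of 8 members (Klf2, Klf3, Klf4, Klf9 and Klf13), 1 match each, and in 20.9% of all promoters. CCAAT boxes were found in 4 members (Klf6, Klf9, Klf11 and Klf13) and in 37.4% of all promoters. No match to the full cAMP response element TGACGTCA, the CArG box of serum response factor, the NF-κB site or the glucocorticoid half-site AGAACA was found in these windows, and the share of all promoters that held them was 1.80%, 1.64%, 8.49% and 18.9%. These matches describe letters of the sequence and do not show binding.

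Klf6 was the dominant KLF gene of these cells. Per kilobase of gene length, at the length given in the table, its level lay between 273 and 484 RPKM, and it made up 56.2% to 69.7% of the RPKM of all 17 KLF genes. Among the 1469 transcription factor genes of the table, Klf6 ranked between 3 and 6 in each library. Klf1, which is not a member, came next at 66.7 to 166 RPKM, and its range did not overlap that of Klf6. Klf11 followed at 25.7 to 58.2 RPKM, below every library of Klf1.

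**Figure D1:**
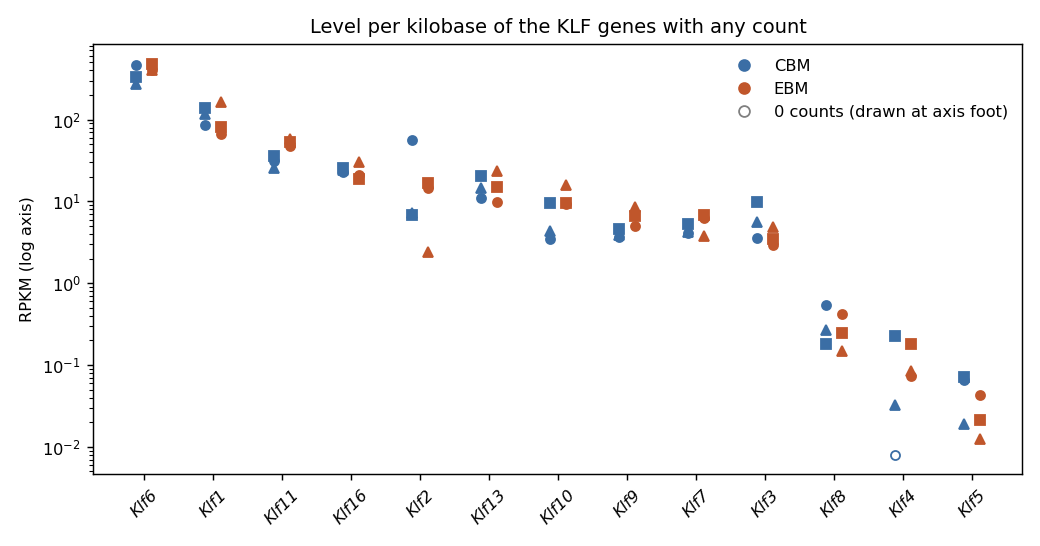
Level of the KLF genes with any count, in RPKM on a log axis, with 1 point per library (blue CBM, orange EBM; circle, square and triangle for replicates 1, 2 and 3). Klf6 lies above all other genes, the points of Klf2 run from 2.44 to 56.8 RPKM, and Klf8, Klf4 and Klf5 lie below 1 RPKM. The 0 counts of Klf4 in CBM replicate 1 are drawn as an open symbol at the foot of the axis.

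Below Klf11 the members were not fully separated in level. Klf16 lay between 18.9 and 30.3 RPKM and overlapped Klf11, and Klf13, at 9.79 to 23.6 RPKM, overlapped Klf16. Ranging more widely, Klf2 ran from 2.44 to 56.8 RPKM and so crossed those of 7 members. Klf10 (3.47 to 15.7 RPKM), Klf9 (3.66 to 8.64), Klf7 (3.82 to 6.87) and Klf3 (2.92 to 9.72) overlapped each other. Klf4 was at or below 0.224 RPKM in every library. Of the other family genes, Klf8 was at 0.148 to 0.547 RPKM and Klf5 at no more than 0.0709 RPKM, and Klf12, Klf14, Klf15 and Klf17 were listed at 0 counts in all 6 libraries.

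Whether KLF genes differ between the regions was asked in the fit over all 13352 genes that passed the filter on low counts. Klf4 did not pass it, and 9 members were tested. With the threshold of 0.05 on the adjusted p of edgeR (quasi-likelihood test), 0 members were called, as were 0.0% of all genes, so no member passed the test. Below 0.05 on the unadjusted p there were 3 members higher in EBM, namely Klf9, Klf10 and Klf11, and 0 lower. Of all genes tested 7.91% were below that value, 4.01% being higher and 3.9% lower. DESeq2 called 1 member at an adjusted p under 0.05, Klf11, and 1.04% of its tested genes as higher. No overlap between the regions was seen for 2 members, both higher in EBM, against 7.47% of all genes with EBM above and 7.65% with EBM below. The median log2 fold change of the 9 members was 0.28, and that of all genes tested was 0.00. In bulk RNA a change in the share of cells that express a gene and a change in RNA per cell cannot be told apart.

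**Figure D2:**
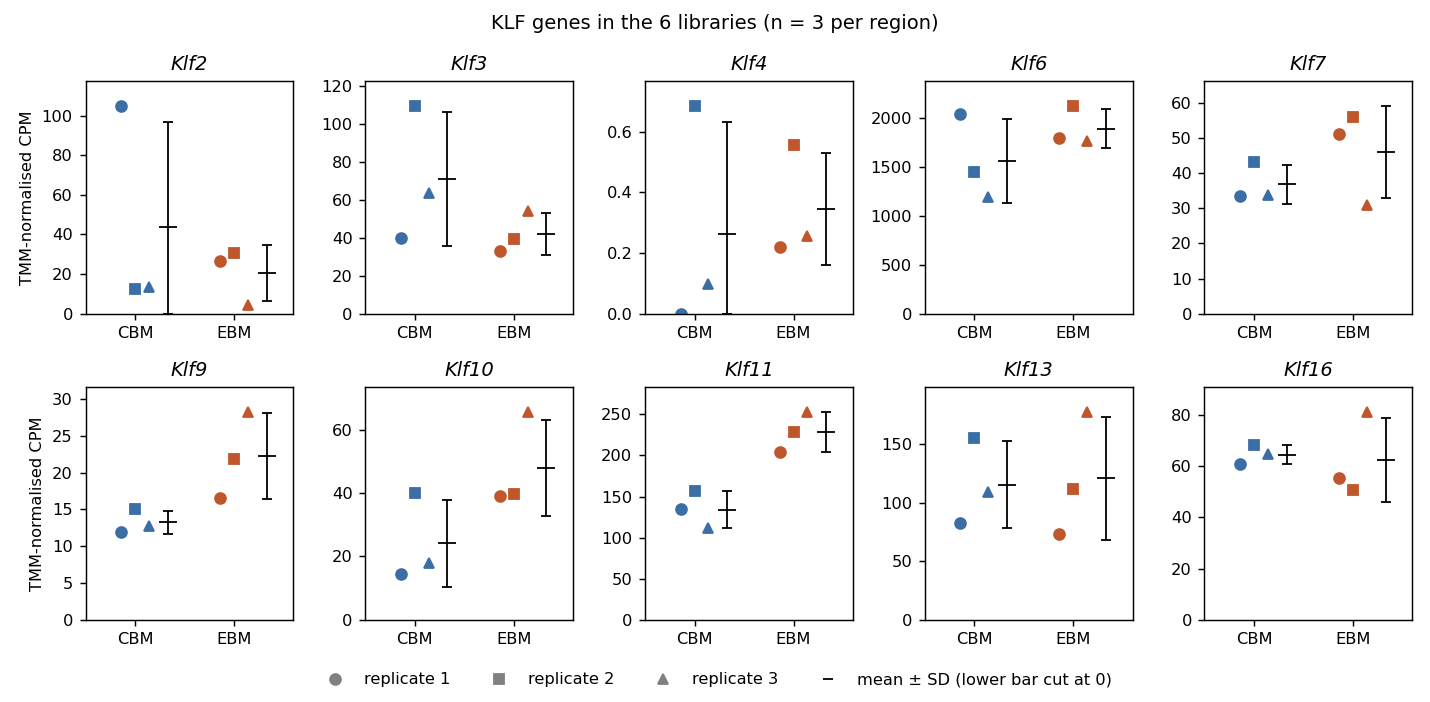
TMM-normalised CPM of each member in each library, with a linear axis from 0 for each gene, points for libraries (circle, square and triangle for replicates 1, 2 and 3) and a bar for the mean ± SD (n = 3). Klf9 and Klf11 show no overlap between CBM and EBM, and for Klf2 a single CBM library lies at 105 CPM while the other 5 lie at or below 30.7 CPM.

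Klf11 (ENSMUSG00000020653), a SIN3A-binding repressor of the TGF-beta early group, lies on chromosome 12 of GRCm38 from 24651274 to 24662789 on the plus strand. In the order of replicates 1 to 3, CBM held 2366, 2970 and 2248 reads of Klf11 and EBM held 3697, 4113 and 3931. Scaled by TMM, CBM was at 135, 156 and 112 CPM and EBM at 204, 229 and 253 CPM. Each EBM library was above each CBM library, with 204 CPM as the lowest of EBM and 156 CPM as the highest of CBM. Mean CPM was 134 ± 22.4 for CBM (SD, n = 3) and 229 ± 24.2 for EBM (SD, n = 3), 1.70-fold apart. In the edgeR fit the log2 fold change of Klf11 was 0.77 ± 0.15 (SE; unadjusted p = 0.00143, adjusted p = 0.220). Klf11 ranked 87 of the 13352 genes by p, and in the exact permutation test over libraries its two-sided p was 0.1, the smallest that 3 against 3 allow. DESeq2 put the same difference at 0.77 (adjusted p = 0.00220). Leaving out each library in turn kept the log2 fold change between 0.65 and 0.89 and the unadjusted p between 0.000762 and 0.00619 in edgeR's test.

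Klf9 (ENSMUSG00000033863), a SIN3A-binding factor known as a direct target of the glucocorticoid receptor, lies on chromosome 19 from 23141226 to 23166911 on the plus strand. It was at 11.9, 15.0 and 12.8 CPM in CBM replicates 1 to 3 and at 16.5, 21.9 and 28.2 CPM in EBM replicates 1 to 3. Both regions were close, yet the lowest of EBM lay above the highest of CBM. Its log2 fold change was 0.74 ± 0.22 (SE; unadjusted p = 0.0115, adjusted p = 0.432 in edgeR's test), and the exact permutation p was again 0.1. With each library left out the log2 fold change lay between 0.53 and 0.92, and in all 13 alternative analyses the unadjusted p was under 0.05. Of the other members, the profile of Klf9 over the 6 libraries was nearest to that of Klf11, with a root mean square difference of 0.174 on the log2 scale, the smallest of any pair of tested members.

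Klf10 (ENSMUSG00000037465), the founding TGF-beta inducible early gene of the group, lies on chromosome 15 from 38291463 to 38300706 on the minus strand. Its levels were 14.5, 39.9 and 18.1 CPM in CBM replicates 1 to 3 and 39.0, 39.6 and 65.5 CPM in EBM replicates 1 to 3. CBM replicate 2 was level with EBM replicates 1 and 2, so the regions overlapped. The log2 fold change was 0.99 ± 0.41 (SE; unadjusted p = 0.0478, adjusted p = 0.623 in edgeR's test; exact permutation p = 0.3). Without CBM replicate 2 it was 1.56 (unadjusted p = 0.00152), and without EBM replicate 3 it was 0.69 (unadjusted p = 0.151, edgeR). CBM replicate 1 held the lowest level of both Klf9 and Klf10, EBM replicate 3 held the highest of Klf9, Klf10 and Klf11, and CBM replicate 2 held the highest CBM level of all 3. EBM replicate 3 and CBM replicate 2 were also the libraries with the most erythroid marker RNA, and its part in the levels of Klf9, Klf10 and Klf11 was not tested.

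**Figure D3:**
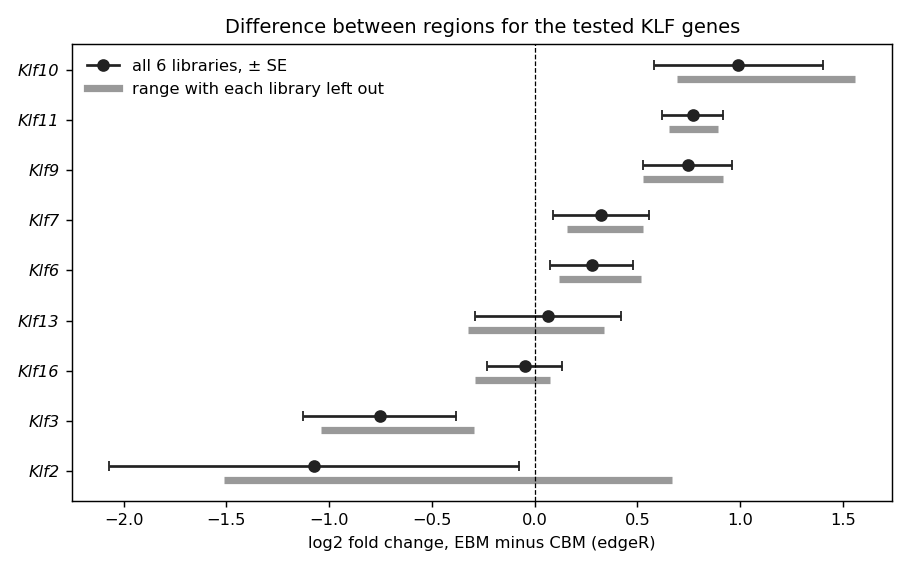
Log2 fold change of EBM against CBM for the 9 tested members, as points with the standard error from edgeR (all 6 libraries) above grey bars for the range of the estimate with each library left out in turn. The grey bars of Klf6, Klf7, Klf9, Klf10 and Klf11 stay to the right of 0, that of Klf3 stays to the left, and that of Klf2 reaches from -1.51 to 0.67.

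Klf13 and Klf16, the remaining members of the SIN3A-binding group, had log2 fold changes near 0. Klf13 (ENSMUSG00000052040), first studied as an activator of the chemokine gene Ccl5 in T cells, lies on chromosome 7 from 63886351 to 63938915 on the minus strand. It was at 82.5, 155 and 109 CPM in CBM and at 73.7, 112 and 178 CPM in EBM, in the order of replicates 1 to 3. The value for Klf13 was 0.07 ± 0.35 (SE; edgeR adjusted p = 0.989), and its spread within each region exceeded the difference. Klf16 (ENSMUSG00000035397), on chromosome 10 from 80567124 to 80577321 on the minus strand, was the steadiest member, at 60.8, 68.1 and 64.6 CPM in CBM and 55.5, 50.6 and 81.0 CPM in EBM. For Klf16 it was -0.05 ± 0.18 (SE; edgeR adjusted p = 0.987). For both genes EBM replicate 3 was the highest library and CBM replicate 2 the second, and the sign of the difference changed when single libraries were left out.

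Klf3 (ENSMUSG00000029178), the CtBP-binding repressor, lies on chromosome 5 from 64803388 to 64832901 on the plus strand. It was counted at 39.6, 109 and 63.7 CPM in CBM replicates 1 to 3 and at 32.8, 39.2 and 54.2 CPM in EBM replicates 1 to 3. CBM replicates 2 and 3 were above every EBM library, while CBM replicate 1 lay among them. Klf3 had a log2 fold change of -0.75 ± 0.37 (SE; unadjusted p = 0.0841, adjusted p = 0.685 in edgeR's test; exact permutation p = 0.2). Without CBM replicate 1 it was -1.04 (unadjusted p = 0.0105) and without CBM replicate 2 it was -0.30 (unadjusted p = 0.333, edgeR). The annotated genes C230096K16Rik, on the same strand, and Gm20033, on the opposite strand, overlap Klf3 and held 32 to 78 and 21 to 46 counts per library, so a small part of the Klf3 count is uncertain.

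EBM replicate 3 and CBM replicate 2, the highest libraries of Klf10, Klf13 and Klf16, were also the highest of the erythroid factor Klf1, and CBM replicate 2 was the highest of Klf3. Klf1, which activates globin and heme genes, was at 132, 210 and 178 CPM in CBM replicates 1 to 3 and 102, 124 and 254 CPM in EBM replicates 1 to 3, its log2 fold change being -0.12 (adjusted p = 0.984 in edgeR). Erythroid marker RNA in CBM replicate 2 and EBM replicate 3 was at 5643 and 3927 CPM over the 7 markers against 2131 to 3507 CPM in the other 4. The part of erythroid RNA in the levels of Klf3, Klf13 and Klf16 was not tested. Klf8, a gene that Klf3 is known to repress, was at 2.85, 0.948 and 1.39 CPM in CBM and 2.21, 1.28 and 0.771 CPM in EBM, lowest in EBM replicate 3 and CBM replicate 2.

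**Figure D4:**
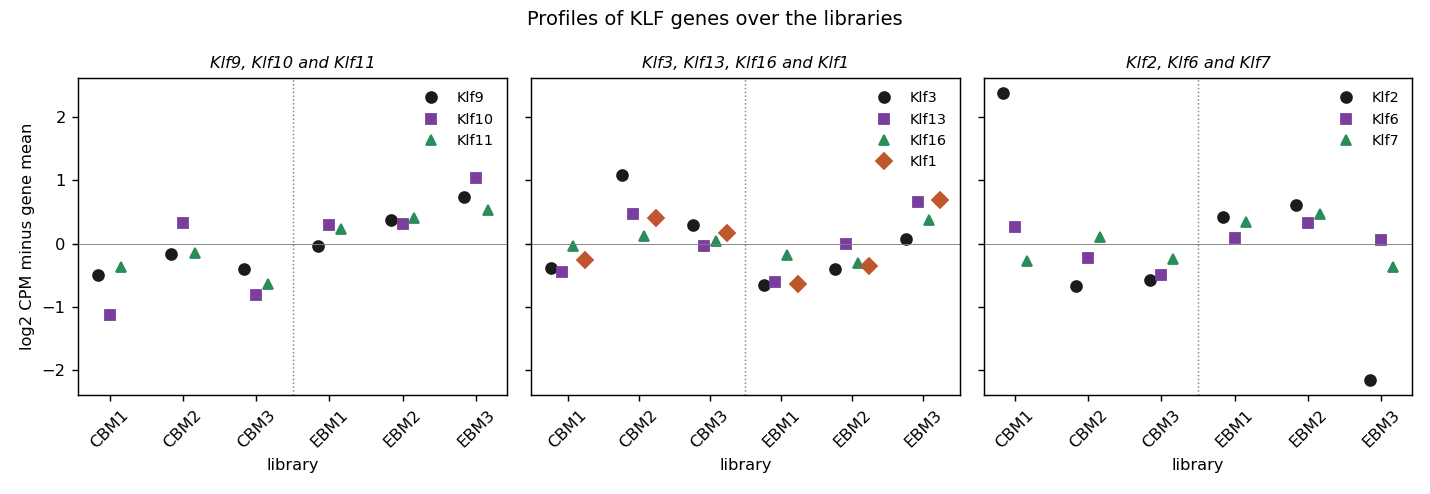
Log2 CPM of KLF genes minus the mean of the gene over the 6 libraries, with 1 point per gene and library and CBM to the left of the dotted line. Klf9, Klf10 and Klf11 are mostly above 0 in EBM. Klf3, Klf13, Klf16 and Klf1 are above 0 in CBM replicate 2 and EBM replicate 3, and all of these but Klf13 also in CBM replicate 3. Klf2 is far above 0 in CBM replicate 1 and far below it in EBM replicate 3.

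Klf2 (ENSMUSG00000055148), the lymphocyte and endothelial quiescence factor, lies on chromosome 8 from 72319033 to 72321656 on the plus strand and was the most variable member. CBM replicates 1 to 3 held 1844, 239 and 272 reads of it, and EBM replicates 1 to 3 held 486, 552 and 70. This was 105, 12.6 and 13.5 CPM in CBM and 26.8, 30.7 and 4.50 CPM in EBM, a 23.3-fold range over the 6 libraries. Of the genes tested, 98.9% had a smaller standard deviation of log2 CPM than Klf2. CBM replicate 1 alone was far above the rest, and without it the order of the regions turned, EBM replicates 1 and 2 then being above both remaining CBM libraries. For Klf2 the log2 fold change was -1.07 ± 0.997 (SE; unadjusted p = 0.318, adjusted p = 0.897 in edgeR's test) and became 0.67 without CBM replicate 1 (unadjusted p = 0.381, edgeR). Endothelial cells are a known source of Klf2. Of their markers, Cdh5, Vwf and Tek were at no more than 0.386 CPM in any library. Kdr was at 0.707 to 1.95 CPM, lower in every EBM library than in every CBM library. All 7 endothelial markers summed to 30.0 to 42.7 CPM in CBM and 29.8 to 41.8 CPM in EBM, of which Plvap made up most, and their part in the Klf2 level was not tested. Fos, at 417 CPM in CBM replicate 1 and 47.4 to 102 CPM elsewhere, was also highest in that library, and so were Jun, at 994 CPM against 217 to 538 CPM, and Dusp1, at 1329 CPM against 382 to 764 CPM. These were 3 of 5 immediate early genes highest in CBM replicate 1, Zfp36 and Ier3 being the others. The remaining 13 of the list, Fosb, Junb and Egr1 among them, were highest in an EBM library. The summed level of the list was highest in CBM replicate 1, at 10699 CPM, against 10293 CPM in EBM replicate 1.

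Klf6 (ENSMUSG00000000078), an early response activator, lies on chromosome 13 from 5861482 to 5870394 on the plus strand. It was at 2040, 1450 and 1198 CPM in CBM replicates 1 to 3 and 1793, 2126 and 1766 CPM in EBM replicates 1 to 3. CBM replicate 1 lay above EBM replicates 1 and 3, and the other CBM libraries lay below all of EBM. Over all libraries Klf6 differed by 0.28 ± 0.20 on the log2 scale (SE; unadjusted p = 0.213, adjusted p = 0.820 in edgeR's test). Without CBM replicate 1, in which Fos, Jun, Dusp1 and Klf2 were highest, it was 0.52 (unadjusted p = 0.0122, adjusted p = 0.564, edgeR). Klf7 (ENSMUSG00000025959), a close relative of Klf6 studied mainly in neurons, lies on chromosome 1 from 64029447 to 64122282 on the minus strand. Its levels were 33.3, 43.2 and 33.9 CPM in CBM and 51.0, 55.8 and 31.0 CPM in EBM, so EBM replicate 3 was the lowest library and EBM replicates 1 and 2 the highest. For Klf7 the log2 fold change was 0.32 ± 0.23 (SE; unadjusted p = 0.212, edgeR), and without EBM replicate 3 it was 0.53 (unadjusted p = 0.0113, adjusted p = 0.407, edgeR).

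Klf4 (ENSMUSG00000003032), on chromosome 4 from 55527143 to 55532466 on the minus strand, is known for monocyte development and for reprogramming to pluripotency. It had 0, 13 and 2 counts in CBM replicates 1 to 3 and 4, 10 and 4 counts in EBM replicates 1 to 3. The 0 counts in CBM replicate 1 allow up to 0.171 CPM, a limit that takes account of counting error alone, because PCR copies of a molecule are not independent. The most counts came from CBM replicate 2 and EBM replicate 2. These were also the libraries with the most RNA of mature neutrophil markers, at 228 and 163 CPM against 3.37 to 49.4 CPM in the other 4 libraries, and the part of those cells in Klf4 was not tested. At this depth no difference of Klf4 between regions was detectable.

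As the KLF box is also bound by the Sp factors, their close relatives, 9 Sp genes were examined, of which 4 were tested, with a median log2 fold change of -0.02. Here and in the lists that follow, genes are counted as higher or lower where the unadjusted p of edgeR was under 0.05, and for the Sp genes these were 1 and 1. The ubiquitous activator Sp1 was higher in EBM, at 167, 207 and 195 CPM against 138, 156 and 156 CPM in CBM, with a log2 fold change of 0.34 (unadjusted p = 0.0198, adjusted p = 0.520, edgeR). Sp3, which can repress at the same sites, was lower in EBM, at 102, 122 and 123 CPM against 130, 162 and 145 CPM, with a log2 fold change of -0.33 (unadjusted p = 0.0322, adjusted p = 0.574, edgeR). Neither gene overlapped between the regions, and neither passed the test. Sp2 and Sp4 had log2 fold changes of 0.02 and -0.07, and the other 5 Sp genes were at or near 0 counts.

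Among 10 cofactors of KLF proteins, 9 were tested, 1 was higher in EBM by the unadjusted p and 0 were lower (median log2 fold change 0.06). This was Sin3a, the corepressor of the group of Klf9, Klf10 and Klf11, at 93.4, 100 and 91.9 CPM in CBM and 119, 117 and 113 CPM in EBM (log2 fold change 0.29, unadjusted p = 0.0107, adjusted p = 0.427, edgeR). The acetyltransferase Ep300 had a log2 fold change of -0.17 (unadjusted p = 0.106, edgeR). Of the CtBP genes, Ctbp1 was at 398 to 525 CPM with a log2 fold change of 0.02, while Ctbp2 was at no more than 0.334 CPM. The 5 ubiquitin ligases known to act on KLF proteins had a median of 0.07, and none had an unadjusted p under 0.05, the smallest being 0.198 for Siah1a and 0.220 for Vhl.

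Upstream of Klf2 and Klf4, the ERK5 and MEF2 branch had 9 of 10 genes tested, with 1 higher and 0 lower and a median log2 fold change of 0.03. Mef2d, a MEF2 factor, was at 127, 123 and 127 CPM in CBM and 157, 149 and 142 CPM in EBM, without overlap (log2 fold change 0.25, unadjusted p = 0.0213, adjusted p = 0.537, edgeR). Hdac5, which restrains MEF2 factors, had a log2 fold change of 0.19 (unadjusted p = 0.173, edgeR). Mapk7, which encodes ERK5 itself, was at 36.4 to 57.2 CPM in CBM and 38.9 to 45.4 CPM in EBM.

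Klf10 and Klf11 are induced by TGF-beta, and 11 genes of that pathway were tested, with 2 higher and 0 lower and a median log2 fold change of 0.08. Skil, a SMAD corepressor gene that TGF-beta induces and 1 of these, was at or below 0.632 CPM in CBM and at 3.53, 2.89 and 0.450 CPM in EBM, so EBM replicate 3 did not share the difference (log2 fold change 2.02, unadjusted p = 0.0237, adjusted p = 0.545, edgeR). Smad7, a direct target, and the ligand gene Tgfb1 differed by -0.04 and 0.18 on the log2 scale (edgeR adjusted p = 0.989 and 0.976).

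Of 6 genes of the glucocorticoid response, which includes Klf9, 4 were tested, 2 being higher in EBM and 0 lower, at a median of 0.44 on the log2 scale. Per1, also a clock gene, was at 86.3, 112 and 97.4 CPM in CBM and 168, 225 and 289 CPM in EBM, its 3 libraries of each region standing in the same order as those of Klf9 (log2 fold change 1.20, unadjusted p = 0.000779, adjusted p = 0.182, edgeR). DESeq2 gave Per1 an adjusted p of 4.51e-05. Tsc22d3 was at 95.3, 48.2 and 43.2 CPM in CBM and 142, 117 and 83.2 CPM in EBM, its CBM replicate 1 lying above EBM replicate 3 (unadjusted p = 0.0378, edgeR). Sgk1, a further target, had a log2 fold change of -0.83 (unadjusted p = 0.0938, edgeR), and Fkbp5 was at or below 1.17 CPM and not tested.

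Downstream, none of the 4 tested genes listed as targets of Klf2 and Klf4 had an unadjusted p under 0.05 (median log2 fold change 0.05). S1pr1, the sphingosine receptor gene through which Klf2 governs lymphocyte exit, was at 14.9, 3.79 and 10.5 CPM in CBM and 6.68, 6.35 and 2.70 CPM in EBM (unadjusted p = 0.148, edgeR). Like Klf2, S1pr1 was highest in CBM replicate 1 and lowest in EBM replicate 3. The order between these ends differed, as CBM replicate 3 lay above EBM replicates 1 and 2 for S1pr1 and below them for Klf2. Cdkn1a, the p21 gene that Klf4 and Klf6 can activate, was at 134, 41.7 and 76.6 CPM in CBM and 217, 175 and 77.7 CPM in EBM (log2 fold change 0.90, unadjusted p = 0.118, edgeR). Of the genes that Klf3 represses, Lgals3 and C1qtnf12 had log2 fold changes of 0.21 and 0.31, with edgeR adjusted p of 0.941 and 0.897, and with Klf8 the median of the 3 was 0.21.

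The immediate early genes, which share rapid induction with several KLF genes, were examined beside them. All 18 were tested, with 7 higher and 1 lower in EBM, a median log2 fold change of 0.56 and a summed level of 4027 to 10699 CPM in CBM and 8545 to 10293 CPM in EBM. Nr4a1 and Nr4a3 had log2 fold changes of 2.89 and 4.35 (edgeR adjusted p = 0.435 and 0.404), each highest in EBM replicate 1, and Ier5 one of 0.60 (edgeR adjusted p = 0.491). Dusp1 was the gene lower in EBM, its log2 fold change being -1.13 (edgeR adjusted p = 0.361; DESeq2 adjusted p = 0.00982). CBM replicate 3 had the lowest level of Klf6 and Klf11 and the lowest summed level of immediate early genes, and their part in the KLF differences was not tested.

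The direction of Klf9, Klf10 and Klf11 differed from that of the zinc-finger class as a whole, which the table gives for 576 genes under zf-C2H2. Of the 349 genes of this class that were tested, 18 were higher in EBM and 77 lower by the same count, that is 5.16% and 22.1%. Over all genes tested these shares were 4.01% and 3.9%, so the class departed from all genes mainly on the lower side. Its median log2 fold change was -0.24. In 113 genes of the class (32.4%) every EBM library was below every CBM library and in 21 (6.02%) every EBM library was above. Over all genes tested these shares were 7.65% and 7.47%. Klf9, Klf10 and Klf11 were 3 of the 18 higher genes. With these 3 included, 6 genes of the class had a log2 fold change at or above that of Klf9. The 407 tested genes of other transcription factor families had a median of 0.00. No member was tested against the class.

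**Figure D5:**
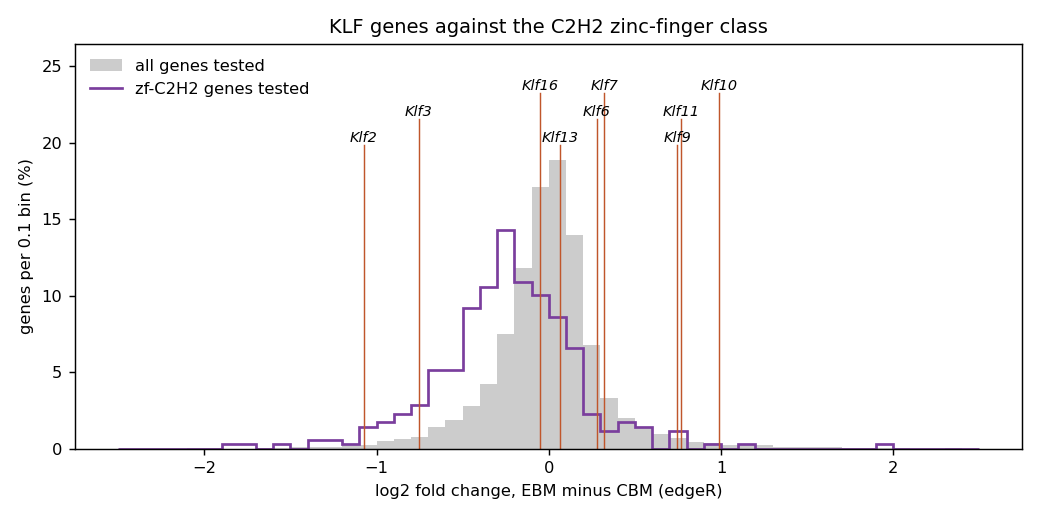
Share of genes (%) per bin of 0.1 in log2 fold change of EBM against CBM, for all 13352 genes tested (grey) and for the 349 tested zf-C2H2 genes (purple line), with vertical lines at the 9 tested members. The class is shifted to the left of 0, with a median of -0.24, and Klf9, Klf10 and Klf11 lie in its right tail; 16 genes, 1 of them of the class, fall outside the axis.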

How the data were processed

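RNA-seq libraries were made by the authors from rRNA-depleted RNA with a directional kit, and the submitters' processing notes name HISAT2 2.0.5 and the build mm10. The counting tool and its strand setting are not given in the sources used here. The authors deposited raw read counts per gene for 54532 genes with gene lengths and a transcription factor class, which were used as given. Gene coordinates are those of the table.

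From these counts, 13352 genes passed filterByExpr of edgeR 4.0.16, were normalized by TMM and were tested with the quasi-likelihood F-test between 3 CBM and 3 EBM libraries, with Benjamini-Hochberg adjustment over all genes at 0.05. The standard error is the absolute log2 fold change divided by the square root of F. CPM and RPKM use the TMM-scaled library sizes. Single values were compared by the exact two-sided permutation test of log2 CPM (prior count 2) over 20 relabellings, whose smallest p is 0.1. The study's methods name no test for the RNA-seq data, and the fit was unpaired. Alternatives were DESeq2 1.42.0, limma-voom (limma 3.58.1), RLE and upper-quartile factors, no filter, a stricter filter (1 CPM in 3 libraries), the replicate number as a block, and each library left out. The fits were tested on simulated counts. Libraries of the same region were not duplicates, as chi-square over its degrees of freedom was 13.1 or more.

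The genes named are the 10 members and, in each pathway list, the 2 genes with the smallest p and those at an unadjusted p under 0.05, up to 4. In each marker list they are the most abundant gene and genes at that p. Mapk7, Sp2, Sp4, Ctbp1, Ctbp2, Smad7, Tgfb1, Sgk1, Fkbp5, Fos, Jun, Zfp36, Ier3, Fosb, Junb, Egr1 and the markers given beside the results were named after their values were seen, and so was the zf-C2H2 comparison added. The members and lists were chosen with earlier results of these data known. Some genes of the lists are not reported here by name.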

Additional observations from a re-analysis of the deposited data

How the results depend on the processing

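No gene passed an adjusted p of 0.05 in edgeR's test (1056 at an unadjusted p under 0.05), whereas DESeq2 called 175 and edgeR without a filter on low counts called 40. Among the KLF genes this number was 0 and became 1 with DESeq2, where Klf11 was at 0.77 on the log2 scale with an adjusted p of 0.00220. In the pathway lists it was 0 and became 3 with DESeq2 (Per1 and Dusp1 among them) and 1 without the filter (Per1). With each library left out these 3 numbers stayed at 0. The number of KLF genes higher in EBM at an unadjusted p under 0.05 was 2 or 3 in every alternative. The number lower was 0 and became 1 (Klf3) with DESeq2 and without the filter, and 0 to 1 with each library left out (1 without CBM replicate 1, Klf3, and 1 without EBM replicate 3, Klf16). Log2 fold changes turned sign only for Klf2 (-1.51 to 0.67 with each library left out), Klf13 (-0.32 to 0.34) and Klf16 (-0.29 to 0.077), of the 9 tested members.

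The regions share replicate numbers, and deviations from the region means correlated across genes with r of 0.68, -0.20 and 0.20 for the numbers 1, 2 and 3, while CBM replicate 2 correlated best with EBM replicate 3 (r of 0.51), so the numbers were not taken as pairs. With the replicate number as a block, 0 genes passed the adjusted threshold, KLF genes below 0.05 before adjustment were 3 higher and 0 lower, and Klf11 differed by 0.78 on the log2 scale (adjusted p of edgeR 0.390). With 3 libraries a region, Klf4 and the low Sp genes were limited by depth.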

Other observations

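In each of the 13 alternative analyses more zf-C2H2 genes were lower than higher in EBM. The number lower at an unadjusted p under 0.05 was between 45 and 88 and the number higher between 9 and 18. Without the KLF family, 338 genes of the class were tested, with 77 lower (22.8%) and 15 higher (4.44%) and a median log2 fold change of -0.24. Of all genes tested, 3.9% were lower and 4.01% higher. The tested genes of the class were longer and less abundant than all tested genes, with a median gene length of 4724 against 3703 bases and a median level of 13.2 against 26.8 CPM. The part of length and abundance in the shift of the class was not tested.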
